A study of Mus musculus with 6 samples.

Results

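The nuclear factor Y (NF-Y) transcription factor is built from 3 subunits, and their genes Nfya, Nfyb and Nfyc were followed in murine preosteoblasts treated with cyanidin-3-O-glucoside (C3G), an anthocyanin pigment of dark fruits and rice. All 3 genes were found by symbol among the 11234 genes listed. Nfya was selected on its values in these libraries, since it belongs to the genes that the study listed as changed by C3G, and its difference between the groups is therefore given as a description without a test. The study also reported a significant difference of Nfya by quantitative PCR, which is not part of these data. Nfyb and Nfyc were taken by name as the partners of Nfya. MC3T3-E1 is a preosteoblast cell line from C57BL/6 mouse calvaria, used here at passage 4. All cells were first held in serum-free medium. Complete medium was then given to the control group without C3G and to the C3G group with 100 μmol/L C3G for 24 h, and 3 RNA-seq libraries were made for each group. A single dose and a single time in 1 cell line were measured. Expression is given as FPKM, the fragments mapped to a gene scaled for its length and for all mapped fragments of the library. The labels do not state that the libraries came from separate cultures, so every p-value below measures the spread between libraries, which may be technical. Read counts were not used here, so the depth behind each FPKM value is unknown and no counting error can be given. These are mRNA levels of whole cultures, in which fewer cells of a kind and less RNA per cell cannot be told apart.

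NF-Y is a trimer found in nearly all cells. NF-YB and NF-YC pair through histone-fold domains much like those of histones H2B and H2A, and NF-YA joins this dimer and gives the complex its recognition of the CCAAT box, a short motif common in promoters shortly before the start of transcription. NF-YA is known as the regulated subunit, whose level can limit how much trimer forms. The complex is known for its part in promoters of cell cycle, endoplasmic reticulum (ER) chaperone, lipid synthesis and collagen genes.

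The promoter windows of the subunit genes themselves are shown because some of them hold the motif that the complex reads. The motif was searched as CCAAT on either strand, so that its reverse complement ATTGG counts too, in RefSeq windows on GRCm38.p6 from 250 bases before to 50 bases after each annotated start. It was found in 37.4% of 32851 windows of all genes, and 3.37% of the windows held 3 or more motifs. An Nfyc window held 5 motifs, with centres at -245, -97, -61, -23 and 16 bases from the start, a count reached by 0.271% of all windows. The outermost Nfyc window held 0 motifs, and the remaining one held 3. Of the Nfyc windows, only that with the most motifs is printed below. The Nfyb window held 0. Of the 3 Nfya windows, 2 held 0, and the one at a start inside the gene held 1, centred at -135. The 250 bases before the start are printed 5′ to 3′ on the minus strand, on which all 3 genes lie, with the motif in capitals. The Nfya windows at the gene's outermost starts are not printed, since they overlap annotated exons by up to 152 and 86 bases, against 3 bases for the printed Nfyb stretch, and the outermost of them includes 57 bases of exon of the divergent gene Oard1.
Nfyc chr4:120825210-120825459: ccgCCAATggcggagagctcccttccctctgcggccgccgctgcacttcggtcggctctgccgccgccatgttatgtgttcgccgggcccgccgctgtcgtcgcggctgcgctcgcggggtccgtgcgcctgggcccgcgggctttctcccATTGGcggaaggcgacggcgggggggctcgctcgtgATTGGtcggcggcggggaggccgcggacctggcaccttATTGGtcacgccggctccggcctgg
Nfyb chr10:82764142-82764391: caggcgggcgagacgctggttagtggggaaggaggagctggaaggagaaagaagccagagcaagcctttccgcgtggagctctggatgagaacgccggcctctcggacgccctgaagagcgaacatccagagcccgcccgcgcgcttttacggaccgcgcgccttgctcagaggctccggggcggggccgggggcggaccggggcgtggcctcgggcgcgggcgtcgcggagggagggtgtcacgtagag
Nfya chr17:48400581-48400830: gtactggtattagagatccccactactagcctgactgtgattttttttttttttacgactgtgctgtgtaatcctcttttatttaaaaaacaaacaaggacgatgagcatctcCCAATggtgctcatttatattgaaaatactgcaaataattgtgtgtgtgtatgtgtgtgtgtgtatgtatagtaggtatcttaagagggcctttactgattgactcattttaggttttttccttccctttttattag
The printed Nfyc stretch shows 4 of the 5 motifs, since the one at 16 lies after the start. A match describes the letters only and is not evidence of binding.

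**Figure D1:**
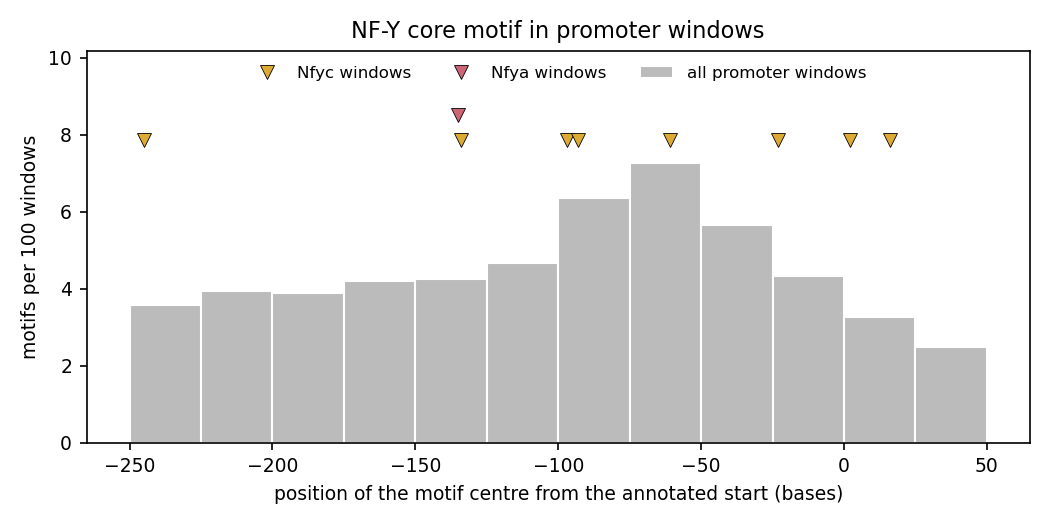
Positions of the NF-Y core motif (either strand) in promoter windows. Grey bars give motifs per 100 windows in bins of 25 bases over all 32851 windows, by distance of the motif centre from the annotated start, and triangles mark the motifs of the Nfyc and Nfya windows. The bars are highest between -75 and -50 bases, at 7.27 motifs per 100 windows, and the 5-motif Nfyc window has 1 motif in that bin, at -61.

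Control replicate 1 stood apart from the other libraries. The median FPKM was 5.80 in control replicate 1 and 6.93 to 7.40 in the others, and 71 genes were listed at 0 in that library against 9 to 18 elsewhere. Its log2(FPKM + 1) values correlated with those of the other libraries at r = 0.886 to 0.939 across genes, which are not independent replicates. Its departures from the mean of the other control libraries followed transcript GC content (rank correlation over genes, rho = 0.748). The corresponding value of C3G replicate 1, against the other C3G libraries, was 0.631, and those of the other 4 libraries were negative, from -0.692 to -0.469. Each library was measured against the rest of its group, so these signs are linked. A single departing library turns the others of its group the opposite way. With limma on log2(FPKM + 1), 73 of 11234 genes (0.65%) passed an unadjusted p under 0.05 with a fold change of at least 1.2, of which 45 were higher and 28 lower with C3G, and 0 passed after Benjamini-Hochberg adjustment, while 74 had an unadjusted p under 0.05. The count was 169 with the replicate number as a block and 144 without control replicate 1. Of the preosteoblast markers, 9 of 10 were listed, with a summed FPKM of 2630 to 7730 in control and 2666 to 3600 in C3G libraries. Of 6 macrophage markers, Cd68, Lyz2 and Cd14 were listed, with sums of 33.8 to 43.1 in control and 48.4 to 57.2 in C3G libraries, and these ranges did not overlap. Lyz2 is among the genes that the study listed as changed by C3G from these libraries, so the sum partly holds values that Lyz2 was selected on. The ranges of 4.02% of all single genes did not overlap either. The leukocyte gene Ptprc and the macrophage genes Csf1r and Adgre1 had no value here. The part of these markers in the results below was not tested. No endothelial or adipocyte marker (0 of 4 each) and 1 of 4 markers each for epithelial cells and myoblasts were listed.

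Nfya (ENSMUSG00000023994.13, GRCm38 chr17:48386885-48409906, minus strand) encodes the subunit that contacts the CCAAT box. Its FPKM was 5.53, 7.10 and 5.26 in control replicates 1 to 3 and 7.25, 7.21 and 8.55 in the C3G replicates. All 3 C3G values lay above all 3 control values, but control replicate 2 came within a small margin of the lower C3G libraries. The means were 5.96 ± 0.994 (SD, n = 3) in control and 7.67 ± 0.765 (SD, n = 3) in C3G cells, a ratio of 1.29. On the log2(FPKM + 1) scale the difference was 0.32 (SE 0.17), and it was positive in each of the 3 pairs of libraries with the same replicate number. C3G values lay wholly above control values in 2.55% of all genes, and 1195 genes had a larger positive difference, which places Nfya at the 89.4th percentile of differences. These values are the ones that Nfya was chosen by, and nothing is read from them beyond the description.

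Nfyb (ENSMUSG00000020248.18, GRCm38 chr10:82748701-82764144, minus strand) encodes the H2B-like histone-fold subunit. Its FPKM was 5.54, 8.04 and 8.81 in control replicates 1 to 3 and 5.27, 6.87 and 7.77 in the C3G replicates. The groups overlapped, and the lowest value of each group came from its replicate 1. The means were 7.47 ± 1.71 (SD, n = 3) in control and 6.63 ± 1.27 (SD, n = 3) in C3G cells. The log2 difference was -0.14 (SE 0.22, 95% interval -0.67 to 0.39) and was not larger than the spread between replicates (limma p = 0.546, adjusted p = 0.992, and p = 0.5 in a two-sided exact permutation test, which cannot go below 0.1 with 3 libraries per group). Each C3G library was nevertheless lower than the control library of the same number, in 3 of 3 pairs. With the replicate number as a block the limma p was 0.297 (adjusted p = 0.794), so the call did not change.

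GC content touched Nfyb more than its partners. The longest annotated transcript of Nfyb, a retained-intron form, has 42.6% GC, at the 15.1th percentile of all genes, against 50.9% for Nfya and 49.8% for Nfyc. After correction of each library for GC content, Nfyb stood at 9.49, 6.75 and 7.59 in the control and at 5.79, 5.87 and 6.70 in the C3G libraries. These corrected groups did not overlap, by a margin far smaller than the spread among controls, and 6.62% of all genes had corrected ranges that did not overlap. The corrected log2 difference was -0.32, with a limma p of 0.061 (adjusted p = 0.996), or 0.0598 with the replicate block (adjusted p = 0.785), and a two-sided exact permutation p of 0.1. Leaving out control replicate 1 gave -0.32 as well (limma adjusted p = 0.992). Leaving out C3G replicate 1 instead brought the difference to -0.01 (limma adjusted p = 0.994).

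Nfyc (ENSMUSG00000032897.17, GRCm38 chr4:120757438-120831572, minus strand) encodes the H2A-like partner of NF-YB. Its FPKM was 6.92, 11.2 and 8.31 in control replicates 1 to 3 and 10.8, 10.6 and 9.07 in the C3G replicates. The highest value of all was a control library, and the lowest was control replicate 1, so the C3G values lay inside the control range. The means were 8.80 ± 2.17 (SD, n = 3) in control and 10.2 ± 0.963 (SD, n = 3) in C3G cells. The log2 difference of 0.21 (SE 0.20, 95% interval -0.27 to 0.69) was within the replicate spread (limma p = 0.339, adjusted p = 0.992, p = 0.4 in the exact permutation test), being positive in 2 of 3 same-numbered pairs. Without control replicate 1 it was 0.07, and with replicates 2 and 3 only it was 0.02. With the replicate block the limma p was 0.276 (adjusted p = 0.794). Of the 75-base stretches of the longest Nfyc transcript, 27.0% (522 of 1932) also occur in Gm9144, a processed pseudogene on chromosome 12, and reads from them could have been assigned to either. Nfya and Nfyb share 0 such stretches with other genes, and the exons of none of the 3 genes overlap those of another gene. Neither Nfyb nor Nfyc passed the thresholds that 0.65% of all genes passed.

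**Figure D2:**
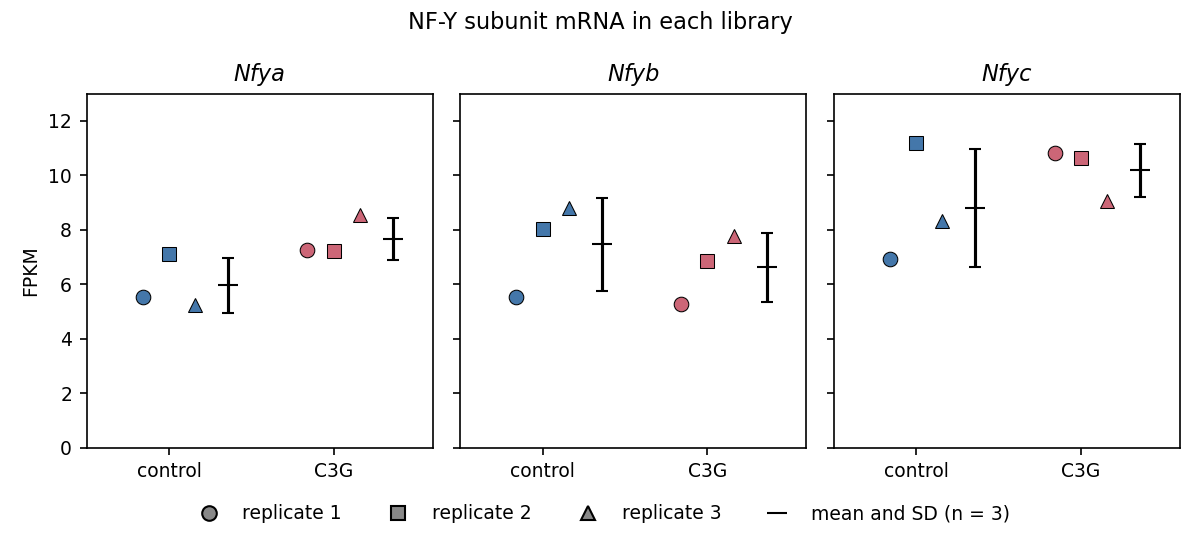
FPKM of Nfya, Nfyb and Nfyc in each library. Symbols give the replicate number (blue control, red C3G), and the black line and bar give the mean and SD of 3 libraries. Nfya is higher in each C3G library (7.21 to 8.55) than in each control library (5.26 to 7.10), whereas the groups overlap for Nfyb and for Nfyc.

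The 3 mRNAs were present at similar, middling levels. FPKM is already divided by gene length, so levels can be set side by side within a library. Over all 6 libraries the means were 9.49 ± 1.68 for Nfyc, 7.05 ± 1.42 for Nfyb and 6.82 ± 1.23 for Nfya (SD, n = 6), at percentiles 58.9, 49.3 and 48.3 of all genes. Nfyc exceeded Nfya in 6 of 6 libraries, by 1.39-fold on average, and Nfyb in 5 of 6, by 1.35-fold. A two-sided exact sign-flip permutation test over the 6 libraries gave p = 0.0625 for Nfyc over Nfyb, which missed the threshold. Adjusted over the 3 pairs of subunits tested it was 0.09375, a value that depends on the tests of the pairs with Nfya. Results of the pairs with Nfya are not given by themselves, since they contain the values that Nfya was selected on. Nfya over Nfyb was 0.970-fold on average, with Nfya the higher in 3 of 6 libraries. The share of Nfyc reads that the pseudogene could take or lend was not tested. The spread of the 3 genes over the libraries, 17.7% to 20.1% as coefficients of variation, was close to the median of 21.9% among 2700 genes of like level.

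The balance between the histone-fold partners was followed within each library, where the scaling between libraries cancels. Nfyc over Nfyb was 1.25, 1.39 and 0.943 in control replicates 1 to 3 and 2.06, 1.55 and 1.17 in the C3G replicates. The groups overlapped, although the ratio was higher with C3G in 3 of 3 same-numbered pairs. The log2 difference of 0.40 had p = 0.3 in a two-sided exact permutation test, which cannot go below 0.1, and the paired exact sign-flip test on the replicate block gave p = 0.25, which is the smallest that 3 pairs allow. The size of the difference depended on single libraries. It was 0.19 without C3G replicate 1, 0.23 without control replicate 3 and 0.60 without C3G replicate 3. It stayed positive in all 10 alternatives and was 0.47 after GC correction (two-sided exact permutation p = 0.2). Nfya over Nfyb was 0.997, 0.882 and 0.596 in control and 1.38, 1.05 and 1.10 in C3G libraries. Here the groups did not overlap, with Nfyb the more abundant mRNA in every control library and Nfya in every C3G library, and the log2 difference was 0.53. It was 0.32 without control replicate 3, and after GC correction control replicate 2 had more Nfya (7.14) than Nfyb (6.75). This ratio contains the values that Nfya was selected on and is not tested. Nfyc over Nfya was 1.25, 1.57 and 1.58 in control and 1.49, 1.48 and 1.06 in C3G libraries, with overlap and a log2 difference of -0.14, which turned to 0.02 without C3G replicate 3 and was -0.33 with replicates 2 and 3 only.

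**Figure D3:**
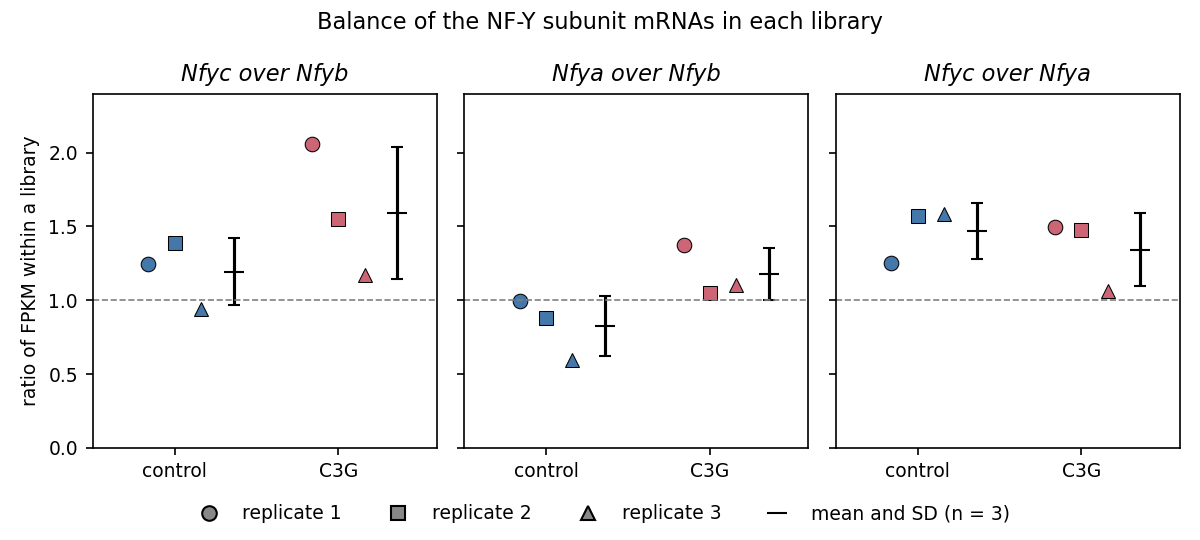
Ratios of subunit FPKM within each library, with symbols for the replicate number, a dashed line at equal levels and black lines and bars for the mean and SD of 3 libraries. Nfya over Nfyb lies below 1 in all 3 control libraries (0.596 to 0.997) and above 1 in all 3 C3G libraries (1.05 to 1.38), and the other ratios overlap between the groups.

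As a share of the summed FPKM of the 3 subunits, Nfya made up 27.1% ± 3.62 in control and 31.3% ± 2.27 in C3G cells, Nfyb 33.6% ± 5.02 and 27.0% ± 4.07, and Nfyc 39.4% ± 2.77 and 41.7% ± 5.45 (SD, n = 3 each). The sum itself was 22.2 ± 4.16 FPKM in control and 24.5 ± 1.04 FPKM in C3G libraries. Its lowest value was again that of control replicate 1. These shares concern mRNA and not the make-up of the protein complex.

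The difference of each member was also computed under 15 other ways of processing the same values. For Nfya it ran from 0.25 to 0.44, which describes the value that Nfya was chosen by and supports nothing further. Nfyb stayed negative, from -0.32 to -0.01, and Nfyc stayed positive, from 0.02 to 0.38. In no setting did Nfyb or Nfyc pass the threshold, with unadjusted limma p-values between 0.0598 and 0.978 for Nfyb (adjusted 0.785 to 1) and between 0.116 and 0.882 for Nfyc (adjusted 0.785 to 1). The median log2 difference of all genes was 0.06 as deposited and -0.003 after quantile normalization, under which the members' differences were 0.26, -0.22 and 0.14 for Nfya, Nfyb and Nfyc.

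**Figure D4:**
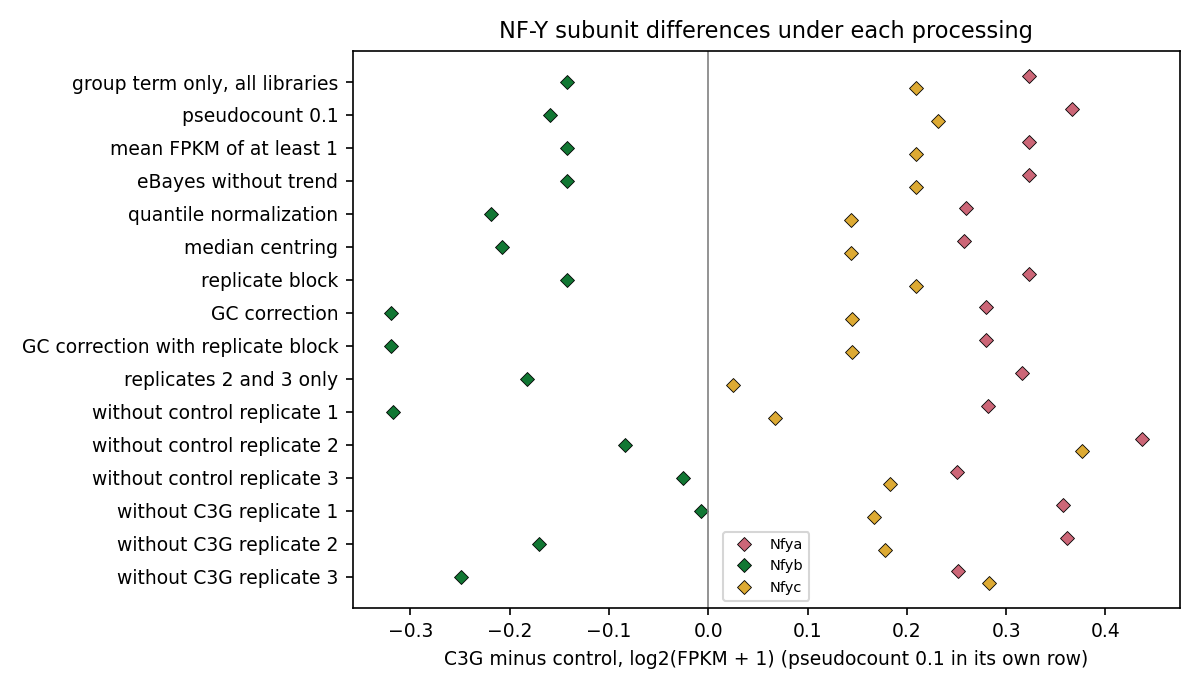
Difference of each subunit gene between C3G and control, on the log2(FPKM + 1) scale, under each processing of the values. The top row is the fit with the group as its only term, a diamond is 1 gene, and the line marks no difference. Nfya and Nfyc lie to the right of it and Nfyb to the left in every row, and Nfyb reaches -0.01 without C3G replicate 1 and Nfyc 0.02 with replicates 2 and 3 only.

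The genes nearest to each subunit in their pattern over the 6 libraries were ranked by the root mean square (RMS) difference of centred log2(FPKM + 1) values among 10463 other genes with a mean FPKM of at least 1. Nearest to Nfya were Sec22c, at an RMS difference of 0.076, then 0610030E20Rik, Pctp, Trappc6b and Zfp108, at up to 0.102. Sec22c stood at 2.22, 3.04 and 2.44 FPKM in control and 3.23, 3.06 and 3.40 FPKM in C3G libraries. Nearest to Nfyb were Cwc22, Lrpprc and Htatsf1, at 0.036 to 0.058, and nearest to Nfyc were G6pdx, Pir and Atp6ap1, at 0.044 to 0.064. Cwc22 is an RNA splicing factor, and its FPKM of 3.78, 5.74 and 5.96 in control and 3.43, 4.95 and 5.32 in C3G libraries shows the low replicate 1 of each group seen for Nfyb. G6pdx, which encodes the first enzyme of the pentose phosphate pathway, had 12.1, 18.6 and 15.6 FPKM in control and 19.0, 18.4 and 16.1 FPKM in C3G libraries, again with control replicate 1 lowest. Among the partners, Nfya and Nfyc were the closest pair, with an RMS difference of 0.186, and Nfyc came at position 489 from Nfya and Nfya at position 1473 from Nfyc. Nfyb came at position 5433 from Nfya and 5448 from Nfyc, at 0.320 and 0.309. With 6 libraries and many genes, such rankings describe likeness only.

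The known partners and targets of NF-Y were read from fixed lists, of which 87 of 89 genes were listed with values (Cebpe and Ciita had no value here). Of the 87 genes, 0 passed the thresholds in either direction and 0 had an unadjusted limma p under 0.05, against 0.65% of all genes that passed. With the replicate block 2 of them, Taf9 and Taf13, were called, beside 1.5% of all genes in that fit. Their median log2 difference was 0.002, beside 0.06 for all genes, with 45 positive and 42 negative. The C3G and control ranges did not overlap for 6 of the 87, beside 4.02% of all genes. These were Taf12 and Fdft1 on the higher side and E2f1, Taf9, Taf11 and Plk1 on the lower side. Of 25 list genes described here (all but Cenpx and Taf13), 17 changed the sign of their difference in at least 1 of the 15 other settings, and Taf9, Taf11, Taf12, Plk1, E2f1, Hspa5, Scd1 and Fdft1 did not.

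**Figure D5:**
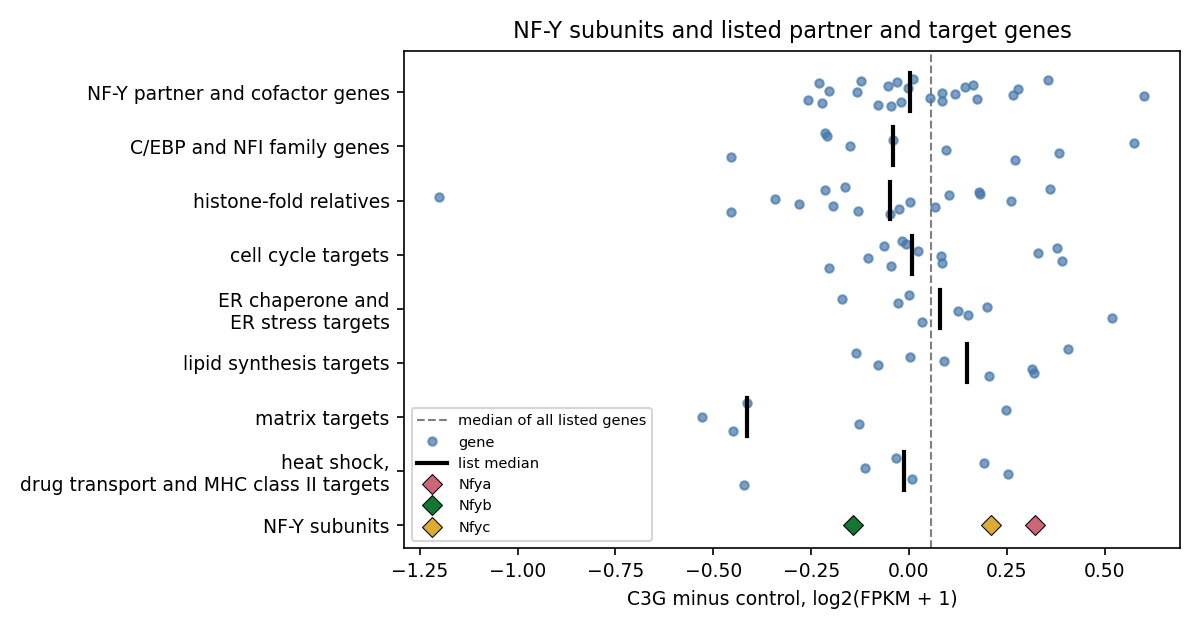
Differences between C3G and control, on the log2(FPKM + 1) scale, of the listed partner, relative and target genes of NF-Y, with 1 blue point per gene, black bars for list medians, a dashed line for the median of all genes and diamonds for the subunits. The medians of 7 of the 8 lists lie between -0.05 and 0.15, and that of the matrix targets at -0.41.

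Among 24 partner and cofactor genes, 12 were positive and 12 negative, with a median of 0.004. Srebf2, the sterol-responsive factor that works beside NF-Y in lipid gene promoters, had 97.5, 44.8 and 47.7 FPKM in control and 75.2, 46.6 and 50.4 FPKM in C3G libraries. Both replicate 1 libraries were high and the rest alike. Foxm1, a factor of the G2/M gene program, had a log2 difference of -0.22 (SE 0.26), which turned to 0.05 without C3G replicate 1. Sp1, a GC-box factor that binds beside NF-Y in many promoters, had 2.74, 16.8 and 16.6 FPKM in control and 12.4, 15.3 and 17.8 FPKM in C3G libraries. Its log2 difference of 0.60 (SE 0.60), the largest of the list, was -0.15 without control replicate 1. E2f1, a cell cycle factor, had 26.6, 22.6 and 22.1 FPKM in control and 18.9, 21.8 and 20.7 FPKM in C3G libraries, a log2 difference of -0.20 (SE 0.15) that did not pass the test and was -0.12 without control replicate 1.

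Factors that bind other CCAAT-like or neighbouring elements, the C/EBP and NFI families, gave 4 positive and 5 negative differences among 9 listed genes, with a median of -0.04 that was 0.11 without control replicate 1 and -0.17 without control replicate 2. Nfix had the highest level, 98.1 ± 26.7 FPKM in control and 93.6 ± 11.6 FPKM in C3G cells (SD, n = 3). Cebpb had 174, 41.5 and 45.5 FPKM in control and 76.5, 41.2 and 40.1 FPKM in C3G libraries, so that its log2 difference of -0.45 (SE 0.57) became 0.20 without control replicate 1. Nfib had 1.38, 8.81 and 8.45 FPKM in control and 6.61, 8.19 and 9.41 FPKM in C3G libraries, and its 0.57 (SE 0.54) became -0.10 without that library.

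The histone-fold relatives of NF-YB and NF-YC, which include TFIID subunits and the kinetochore CENP-S/X and CENP-T/W pairs, gave 7 positive and 10 negative differences (median -0.05). Taf9, a TFIID and SAGA subunit, had 2.13, 13.6 and 4.23 FPKM in control and 1.35, 2.07 and 1.73 FPKM in C3G libraries. Each C3G value lay below each control value, and the control values spread far more than the C3G values. The log2 difference was -1.20 (SE 0.53), and -0.58 without control replicate 2, the highest library. It missed the threshold in the fit of all 6 libraries and passed it in 7 of 15 other settings, with an unadjusted limma p of 0.0241 under the replicate block. Taf9 shares exons with Ak6 on the same strand, and 75.2% of its 75-base stretches also occur in other genes, so its level is uncertain. Taf11 had 24.1, 16.5 and 17.3 FPKM in control and 15.1, 15.7 and 15.7 FPKM in C3G libraries, and Taf12, its fellow TFIID subunit, had 3.65, 7.69 and 7.71 FPKM in control and 8.35, 7.85 and 8.01 FPKM in C3G libraries. For both, the distance between the groups was small beside that of control replicate 1, and Taf11 overlaps Anks1 on the opposite strand. Drap1, which represses transcription with Dr1, was the most abundant relative at 162, 44.8 and 55.1 FPKM in control and 71.7, 45.9 and 46.8 FPKM in C3G libraries, followed by Pole3 at 32.7 ± 9.55 FPKM and 33.4 ± 3.78 FPKM. Cenpx had a log2 difference of 0.00 in the FPKM values used here. The study listed Cenpx as higher with C3G from these libraries and also reported a significant difference by quantitative PCR. Why the values differ was not tested.

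The cell cycle targets, genes of S phase and mitosis known as NF-Y targets, gave 6 positive and 6 negative differences with a median of 0.01, which was 0.16 without control replicate 3 and -0.08 without control replicate 1. Top2a, the topoisomerase of mitotic chromosomes, had 51.5, 109 and 126 FPKM in control and 64.4, 105 and 125 FPKM in C3G libraries, with both replicate 1 libraries low. Plk1, the mitotic kinase, had 69.2, 74.0 and 70.8 FPKM in control and 69.1, 66.9 and 68.6 FPKM in C3G libraries. Its groups did not overlap, but the log2 difference was -0.06 (SE 0.14). Ccnb1, the mitotic cyclin, had the largest difference, 0.39 (SE 0.44), from 22.4 ± 11.6 FPKM in control to 26.8 ± 5.20 FPKM in C3G cells, and was -0.12 without control replicate 1. Of its 75-base stretches, 35.2% (849 of 2415) also occur in Ccnb1-ps and other pseudogenes. The ER chaperone and ER stress targets gave 6 positive and 2 negative differences, with a median of 0.08 that turned to -0.03 without C3G replicate 1 or after GC correction and was 0.16 without C3G replicate 2. Hspa5, the main ER chaperone, had 38.9, 111 and 66.6 FPKM in control and 110, 62.7 and 125 FPKM in C3G libraries, a wide overlap with a log2 difference of 0.52 (SE 0.43) that was 0.14 without control replicate 1, 0.89 without control replicate 2 and 0.82 without C3G replicate 2. Calr and Hsp90b1, the most abundant of the list, differed by 0.03 (SE 0.30) and 0.13 (SE 0.27).

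Lipid synthesis targets had a median of 0.15, with 6 of 8 positive. The median was 0.07 without control replicate 1, 0.06 without C3G replicate 2 and 0.04 after GC correction. It was 0.22 without control replicate 2 and also without C3G replicate 3. Fdft1, squalene synthase, had 18.3, 16.3 and 15.8 FPKM in control and 20.5, 19.4 and 23.9 FPKM in C3G libraries, without overlap and with a log2 difference of 0.32 (SE 0.16) that did not pass. Scd1, a desaturase of fatty acids, had 37.7, 71.9 and 67.7 FPKM in control and 79.4, 76.6 and 71.4 FPKM in C3G libraries, a difference of 0.41 (SE 0.26) that fell to 0.12 without control replicate 1. The exons of Fdft1 overlap those of Ctsb on the opposite strand. Matrix targets had a median of -0.41, with 1 of 5 positive. Col1a1, the main collagen of bone, had 4432, 942 and 1221 FPKM in control and 1478, 923 and 1246 FPKM in C3G libraries, and Col1a2 had 1995, 593 and 742 FPKM in control and 852, 593 and 735 FPKM in C3G libraries. Control replicate 1 stood far above the rest for both collagens, and without it the median of the list was -0.01. The heat shock, drug transport and MHC class II targets had a median of -0.01 over 6 listed genes, with 3 positive. Hspa1a and Hspa1b, near-identical heat shock genes with 61.7% and 55.8% of their 75-base stretches in common with other genes, differed by -0.42 (SE 0.38) and -0.11 (SE 0.24), and Cd74, the invariant chain of MHC class II, by -0.03 (SE 0.50). Without control replicate 1 all of these were positive, at 0.04, 0.11 and 0.49, and the median of the list was 0.16.

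Promoter windows were matched for 79.9% of the 11234 genes, which is under 80%, so genes with and without the motif were not compared over the whole table. Within the lists of which at least 80% of the listed genes matched, the motif was present in 8 of 10 cell cycle targets, 7 of 8 ER targets, 3 of 4 matrix targets and 4 of 16 histone-fold relatives with a window. These counts take a gene with the motif in any of its windows, which held for 44.1% of the 8978 matched genes. A longer spaced motif of ER stress promoters, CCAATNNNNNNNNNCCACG on either strand (which contains the CCAAT motif), was found in 4 of 8 ER target genes, and in 39 of all 32851 windows (0.119% of windows, not of genes). The targets were picked as known NF-Y genes, so these shares describe the lists. The printed sites, 5′ to 3′ on the strand of the gene on GRCm38.p6, are from some of the genes described above. Sites of Cdk1, the mitotic kinase, and Pdia6, an ER disulphide isomerase, are added. A single site is printed per gene, the spaced motif where present and otherwise the one nearest to 80 bases before the start. The windows of Top2a and Hsp90b1 held 6 motifs each. Other genes described above, such as Sp1, Nfix and Taf11, hold the motif without a printed site. Capitals mark the motif and, in the ER genes, the second element of the spaced motif too.
Ccnb1 chr13:100786539-100786563 (- strand): cacgaactggCCAATgaggagcgag
Cdk1 chr10:69352978-69353002 (- strand): ctcagctctgATTGGctcctttgaa
Top2a chr11:99024253-99024277 (- strand): gcaaacagagCCAATgagagcgagt
Plk1 chr7:122159411-122159434 (+ strand): atccccgcggCCAATcagcaacgc
Hspa5 chr2:34772022-34772046 (+ strand): tcaCCAATcggaggcctCCACGacg
Hsp90b1 chr10:86705635-86705659 (- strand): agcCCAATcgcaaggagCCACGctt
Calr chr8:84847072-84847096 (- strand): acgCGTGGtcgaccctcATTGGccc
Pdia6 chr12:17266488-17266512 (+ strand): agaCCAATgaaaggcggCCACGgcg
Srebf2 chr15:82147124-82147148 (+ strand): tcgcgcgccgATTGGctaatgcaag
Col1a2 chr6:4505499-4505523 (+ strand): aagaatggaaCCAATttaagaagcc
Hspa1a chr17:34972209-34972233 (- strand): cggctcgctgATTGGcccagcggag
Hspa1b chr17:34959291-34959315 (- strand): cggctcgctgATTGGcccagcggag
In Hspa5, Hsp90b1 and Pdia6 the spaced motif reads in the direction of the gene, and in Calr it reads on the other strand. The Hspa1a and Hspa1b sites are the same in all printed bases. None of the genes whose sites are printed passed the thresholds in the fit of all 6 libraries, and Calr and Hsp90b1 were positive there by less than their standard errors.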

How the data were processed

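RNA from MC3T3-E1 cells was sequenced from stranded libraries, 3 per group. The authors deposited 1 table of FPKM per library, calculated with Ballgown. The submitters' processing notes name cutadapt, HISAT2 2.1.0, StringTie, STAR 2.5.2b and the build hg19, with no roles. The listed identifiers are mouse, and 9812 of 11234 carry GENCODE M21 versions, so positions, GC content and overlaps are from M21 on GRCm38. Every gene had a group mean of at least 0.500 FPKM in at least 1 group. Strand use in counting is not given in the sources used here.

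Values were fitted as log2(FPKM + 1) with limma 3.58.1 (eBayes with trend, group as the only term) in R 4.3.3. Genes were called where the fold change reached 1.2 and the two-sided p, before adjustment, was under 0.05. Benjamini-Hochberg adjustment ran over all genes. The fit was tested on simulated data. Exact tests were run in Python 3.11.15 (numpy 2.4.6, scipy 1.17.1, pandas 2.3.3). GC content was corrected with a natural spline of 5 degrees of freedom per library.

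Groups and replicate numbers came from the labels. Deviations of same-numbered libraries from their group means correlated at 0.653, 0.580 and 0.440 (others -0.640 to 0.307). The deviations within a group cancel out, so these values are linked and cannot settle a pairing, which the labels do not state. Same-numbered pairs and the replicate block were therefore kept as alternative readings. Other settings were a pseudocount of 0.1, a mean FPKM of at least 1, no trend, quantile normalization, median centring, the replicate block, GC correction, replicates 2 and 3 only and leaving out each library.

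Genes named were the members, list genes past both thresholds, the 2 most abundant genes and that of largest difference per list (mean FPKM of at least 1), and the nearest 5 genes to Nfya and 3 each to Nfyb and Nfyc. E2f1, Taf11, Taf12 and Fdft1 were named after their values were seen, since their ranges did not overlap, as were Cenpx, Taf13, Oard1 and the Cdk1 and Pdia6 sites. The members and lists were chosen with earlier results of these data known. Promoter sequences are from RefSeq.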

Additional observations from a re-analysis of the deposited data

How the results depend on the processing

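The differences of Nfyb and Nfyc kept their sign, uncalled, under all 15 alternatives, and the replicate block changed no call for these tested members (limma adjusted p = 0.794 for Nfyb and for Nfyc). The number of genes called moved from 73 to 169 with the replicate block, 135 with GC correction, 246 with both and 191 with replicates 2 and 3 only. It ranged from 40 to 144 when 1 library was left out, with 144 without control replicate 1, 127 without control replicate 2, and 45, 40 and 43 without C3G replicates 1, 2 and 3. The split of calls was 45 higher and 28 lower as deposited, 30 and 30 after quantile normalization, 30 and 25 after median centring, and 67 and 68 after GC correction. The number of list genes called rose from 0 to 1 with quantile normalization, median centring or GC correction and to 2 with the replicate block, with GC correction and the block, or with replicates 2 and 3 only, and ranged from 0 to 2 with 1 library left out. Taf9 was called in each of these, beside Taf13 in the fits with the block and Fdft1 without control replicate 1 or with replicates 2 and 3 only. In none of the settings did a gene pass after adjustment over all genes.

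The level of Nfya over Nfyb, -0.04 on the log2 scale, was -0.31 in control libraries only, turned to 0.22 in C3G libraries only, was -0.18 with replicates 2 and 3 only, and ranged from -0.14 to 0.10 with 1 library left out, positive without control replicate 3. The histone-fold median of -0.05 became -0.12 with quantile normalization, -0.11 with median centring and -0.14 with GC correction, with or without the block, and ranged from -0.082 to 0.011 with 1 library left out. The partner median of 0.004 ranged from -0.090 to 0.064 with 1 library left out. The share of windows with the motif was 24.5% when only 150 bases before the start were read, in place of 37.4%, since the stretch is shorter. The cause of the other changes was not tested. The comparison of genes with and without the motif was not run, because too few genes matched a window. Groups of 3 libraries and FPKM without read counts limit all of these values.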
